A study of Mus musculus with 6 samples.

Results

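The 9 genes described here, S100a8, S100a9, Retnlg, Hp, Ngp, Camp, Chi3l3, Plac8 and Vcan, are transcribed by neutrophils and monocytes, and they were followed through all 6 single-cell tables of a study of brain myeloid cells. They were chosen by name from 19361 genes listed in the series. All 9 were listed in 4 libraries and 8 in metastasis 2 and naive 1, whose tables do not list Vcan. Cells came from female mice aged 2 to 3 months, as suspensions enriched for Cd11b-positive cells on magnetic columns after a Percoll gradient, and were captured by Drop-seq, which counts transcripts of single barcoded cells by unique molecular identifiers (UMIs). The metastasis group held brains of unmodified C57BL/6 mice removed 2 to 3 weeks after E0771 cells (a mammary carcinoma line of the mouse) had been injected into the heart, and the naive group held brains of unmodified C57BL/6 mice without metastases. Each of these groups had 2 libraries, numbered as replicates, and every library came from 1 brain. The Cx3cr1-null (Cx3cr1-/-) and the Cx3cr1-heterozygous (Cx3cr1+/-) groups, mice of the C57BL/6 strain, both carried E0771 metastases 2 to 3 weeks after injection and had 1 library each, from 2 pooled brains. The labels do not describe the Cx3cr1 allele, and neither Cx3cr1 group has a counterpart without metastases.

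S100a8 and S100a9 encode the paired calcium-binding proteins of calprotectin, which fills the cytosol of neutrophils and is also made by inflammatory monocytes. Ngp and Camp encode proteins of the secondary (specific) granules and are transcribed while neutrophils mature in the bone marrow. Retnlg encodes a resistin-like protein of mature neutrophils, and Hp encodes haptoglobin, a haemoglobin-binding protein stored in neutrophil granules and also made by monocytes and liver. These 6 are called the neutrophil members. Chi3l3 (Chil3, the lectin Ym1), Plac8 (a small cysteine-rich protein) and Vcan (the proteoglycan versican) are the monocyte members. Microglia, the resident macrophages of the brain, are not known as a main source of the granule proteins.

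Depth set how much could be seen. The 1000 deposited barcodes of each library held 491621 UMIs in metastasis 2, 1222347 to 1764092 in naive 1, naive 2 and the null library, and 2376501 to 2667099 in the heterozygous library and metastasis 1. A barcode was kept as a cell with at least 400 genes, under 10% mitochondrial UMIs and a doublet score outside the top 5%, which left 76 to 940 cells per library, and 72 to 330 of these were microglia-like by markers that include none of the 9 genes. The mitochondrial share differed by library, with medians of 2.96% to 8.64% in metastasis 1, metastasis 2 and naive 1 and 19.3% to 20.3% in naive 2 and both Cx3cr1 libraries. Metastasis 1 stood apart: its P2ry12 level, a microglial receptor, was 168 CPM (UMIs of the gene per 1000000 UMIs) against 748 to 2250 CPM in the other libraries, 163 of its 164 microglia-like cells lay in a Ccl4-led cluster named only within that library, and it alone held carcinoma-like cells (62). The myeloid markers Itgam and Csf1r were present in every library, at 355 CPM or more and 429 CPM or more. In all 4 libraries of unmodified mice the table's name contradicts the label on which group it is, and the labels were followed, so every direction between metastasis and naive rests on the labels. Libraries shared at most 1 cell barcode pairwise.

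The calprotectin genes are neighbours in the genome, and the granule genes Ngp and Camp share a chromosome. On GRCm38 (GENCODE M21), S100a8 lies at chr3:90668978-90670035 on the plus strand and S100a9 at chr3:90692632-90695721 on the minus strand, 22.6 kb apart with 0 protein-coding genes between them. Ngp lies at chr9:110419747-110423012 (plus) and Camp at chr9:109847379-109849617 (minus), 570 kb apart with 8 protein-coding genes between them. The remaining members lie on chromosomes 16 (Retnlg), 8 (Hp), 3 (Chi3l3), 5 (Plac8) and 13 (Vcan). The 250 bases before the transcript start of these 4 genes are shown because they are the pairs whose UMIs are set against each other below, as read from RefSeq (GRCm38.p6) on each gene's own strand. The RefSeq starts of S100a8, Ngp and Camp lie inside the GENCODE bounds given above. Capitals mark matches to TTNNGCAA, the core of C/EBP sites, or to AGGAAGT, a PU.1 core, on either strand (reverse complements TTGCNNAA and ACTTCCT).
S100a8 (chr3:90668821-90669070, plus): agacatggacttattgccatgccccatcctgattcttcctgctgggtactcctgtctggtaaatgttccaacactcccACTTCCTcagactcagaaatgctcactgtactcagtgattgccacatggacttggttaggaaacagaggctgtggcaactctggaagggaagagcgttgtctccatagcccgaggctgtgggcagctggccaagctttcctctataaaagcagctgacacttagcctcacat
S100a9 (chr3:90695722-90695971, minus): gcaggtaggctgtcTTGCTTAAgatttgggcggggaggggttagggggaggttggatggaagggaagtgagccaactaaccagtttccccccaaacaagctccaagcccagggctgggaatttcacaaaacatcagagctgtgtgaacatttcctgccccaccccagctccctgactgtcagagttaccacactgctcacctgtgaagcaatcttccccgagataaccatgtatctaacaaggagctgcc
Ngp (chr9:110419558-110419807, plus): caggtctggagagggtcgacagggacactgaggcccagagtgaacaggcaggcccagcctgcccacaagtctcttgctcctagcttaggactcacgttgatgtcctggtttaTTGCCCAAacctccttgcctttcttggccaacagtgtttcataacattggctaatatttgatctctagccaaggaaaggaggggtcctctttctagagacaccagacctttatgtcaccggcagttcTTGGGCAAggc
Camp (chr9:109849457-109849706, minus): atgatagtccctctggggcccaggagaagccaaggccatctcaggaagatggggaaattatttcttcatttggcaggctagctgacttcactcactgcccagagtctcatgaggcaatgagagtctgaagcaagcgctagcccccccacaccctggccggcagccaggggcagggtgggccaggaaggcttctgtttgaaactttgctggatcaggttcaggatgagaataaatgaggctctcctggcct
C/EBP factors drive granule genes of maturing neutrophils, and PU.1 is a master factor of myeloid cells. The S100a9 window held 1 C/EBP match, 236 bases before the start, and the Ngp window held 2, at 138 and 11 bases. The S100a8 window held 1 PU.1 match, at 172 bases, and the Camp window held neither motif. Of 8 members with a RefSeq promoter entry, 4 held a C/EBP match (S100a9, Retnlg, Ngp and the second start of Plac8) and 2 a PU.1 match (S100a8 and Chi3l3). Over 32841 windows of the same length, 9.57% held the C/EBP letters and 7.69% the PU.1 letters. A match is a description of these letters, not of binding.

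Over all deposited barcodes, the neutrophil members were highest in the null library and lowest in naive 1, and the monocyte members were low in naive 1 and metastasis 2 and high elsewhere. The neutrophil members summed to 364 CPM in metastasis 1 and 459.7 CPM in metastasis 2, against 59.7 CPM in naive 1 and 177 CPM in naive 2. They reached 854 CPM in the null library and 402 CPM in the heterozygous library. Both metastasis libraries thus lay above both naive libraries over all barcodes. In metastasis 2, 924 of these barcodes were left out of the cells. Its 72 microglia-like cells held 15 of its 226 neutrophil-member UMIs (107 CPM). Its 5 erythroid markers summed to 3731 CPM over all barcodes and 35.7 CPM in microglia-like cells. Over all barcodes of the other libraries they summed to 22.9 to 139 CPM. Whether blood RNA enters the neutrophil sum of metastasis 2 was not tested. The monocyte members summed to 498 CPM in metastasis 1 and 40.7 CPM in metastasis 2, against 18.0 CPM in naive 1 and 252 CPM in naive 2, so the groups overlapped. They reached 409 CPM in the null library and 481 CPM in the heterozygous library. Exact Poisson 95% intervals, which here and below cover counting error only, overlapped between metastasis 1 (342 to 388 CPM) and the heterozygous library (377 to 428 CPM) for the neutrophil sum, and between metastasis 2 (402 to 524 CPM) and the heterozygous library. The other neighbours in the order of neutrophil sums lay apart by more than counting error.

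The calprotectin genes made up most of the neutrophil signal in every library. S100a8 stood at 192 CPM (513 UMIs) in metastasis 1 and 201 CPM (99 UMIs) in metastasis 2, against 25.4 CPM (31 UMIs) in naive 1 and 66.6 CPM (108 UMIs) in naive 2. S100a9 stood at 86.2 CPM in metastasis 1 and 157 CPM in metastasis 2, against 18.0 CPM in naive 1 and 72.1 CPM in naive 2. Both genes were higher in each metastasis library than in each naive library, with S100a9 of metastasis 1 (75.5 to 98.1 CPM) and naive 2 (59.6 to 86.4 CPM) within counting error of each other. The null library held 311 CPM of S100a8 and 351 CPM of S100a9, and the heterozygous library 126 CPM and 130.02 CPM of the same genes. S100a8 was 69.0% of the calprotectin UMIs in metastasis 1 (95% Clopper-Pearson interval 65.6 to 72.4), and 56.2% in metastasis 2, against 58.5% in naive 1 and 48.0% in naive 2, and it was 47.0% in the null and 49.3% in the heterozygous library. Metastasis 1 had the highest share of S100a8.

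Retnlg, the marker of mature neutrophils, was scarce except in the null library. It had 48 UMIs in metastasis 1 and 12 in metastasis 2, against 3 in naive 1 and 31 in naive 2, which is 18.0 and 24.4 CPM against 2.45 and 19.1 CPM. The null library held 156 UMIs (88.4 CPM) and the heterozygous library 14 (5.89 CPM). The metastasis and naive libraries did not separate beyond counting error, since the intervals of metastasis 1 (13.3 to 23.9 CPM) and naive 2 (12.98 to 27.1 CPM) overlapped. Hp stood at 48.4 CPM in metastasis 1 and 2.03 CPM (1 UMI) in metastasis 2, against 3.27 CPM in naive 1 and 16.0 CPM in naive 2, and at 44.2 CPM in the null and 35.8 CPM in the heterozygous library. It did not follow the calprotectin genes, being near the bottom in metastasis 2 where S100a8 was high.

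The secondary granule genes had an order of their own. Camp, the cathelicidin antimicrobial peptide, stood at 12.4 CPM in metastasis 1 and 61.0 CPM in metastasis 2, against 3.27 CPM in naive 1 and 1.85 CPM in naive 2. Ngp, the neutrophilic granule protein, stood at 6.75 CPM in metastasis 1 and 14.2 CPM in metastasis 2, against 7.36 CPM in naive 1 and 1.23 CPM in naive 2. Camp was thus higher in both metastasis libraries over all barcodes, while the groups overlapped for Ngp. The kept cells of metastasis 2 held 0 UMIs of either gene, so both its levels came from barcodes left out of the cells. The null library held 39.1 CPM of Ngp and 19.8 CPM of Camp, and the heterozygous library 49.2 CPM of Ngp and 54.7 CPM of Camp, so Camp was higher in the heterozygous library although S100a8, S100a9 and Retnlg were lower there. Both genes together stood at 19.1 CPM in metastasis 1 and 75.3 CPM in metastasis 2, against 10.6 CPM in naive 1 and 3.08 CPM in naive 2, and at 59.0 CPM in the null and 104 CPM in the heterozygous library.

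Plac8 was the monocyte member with most UMIs in every library, tied with Chi3l3 in metastasis 2. It stood at 267 CPM in metastasis 1 and 20.3 CPM in metastasis 2, against 9.82 CPM in naive 1 and 199.7 CPM in naive 2, and at 328 CPM in the null and 356 CPM in the heterozygous library. Chi3l3 stood at 188 CPM in metastasis 1 and 20.3 CPM in metastasis 2, against 8.18 CPM in naive 1 and 44.4 CPM in naive 2, and at 67.5 CPM in the null and 105 CPM in the heterozygous library. In metastasis 2 the 2 genes had 10 UMIs each. Chi3l3 made up 37.8% of the monocyte-member UMIs in metastasis 1 and 10 of 20 UMIs in metastasis 2, against 45.5% in naive 1 (10 of 22 UMIs) and 17.6% in naive 2, and 16.5% in the null against 21.9% in the heterozygous library. Vcan stood at 42.7 CPM in metastasis 1, 8.01 CPM in naive 2, 13.6 CPM in the null and 20.2 CPM in the heterozygous library. Metastasis 1 had the highest Chi3l3 and Vcan levels and a lower Plac8 level than both Cx3cr1 libraries. Of all 9 members' UMIs, the monocyte members made up 57.7% in metastasis 1 and 8.1% in metastasis 2, against 23.2% in naive 1 and 58.8% in naive 2, and 32.4% in the null against 54.5% in the heterozygous library.

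**Figure D1:**
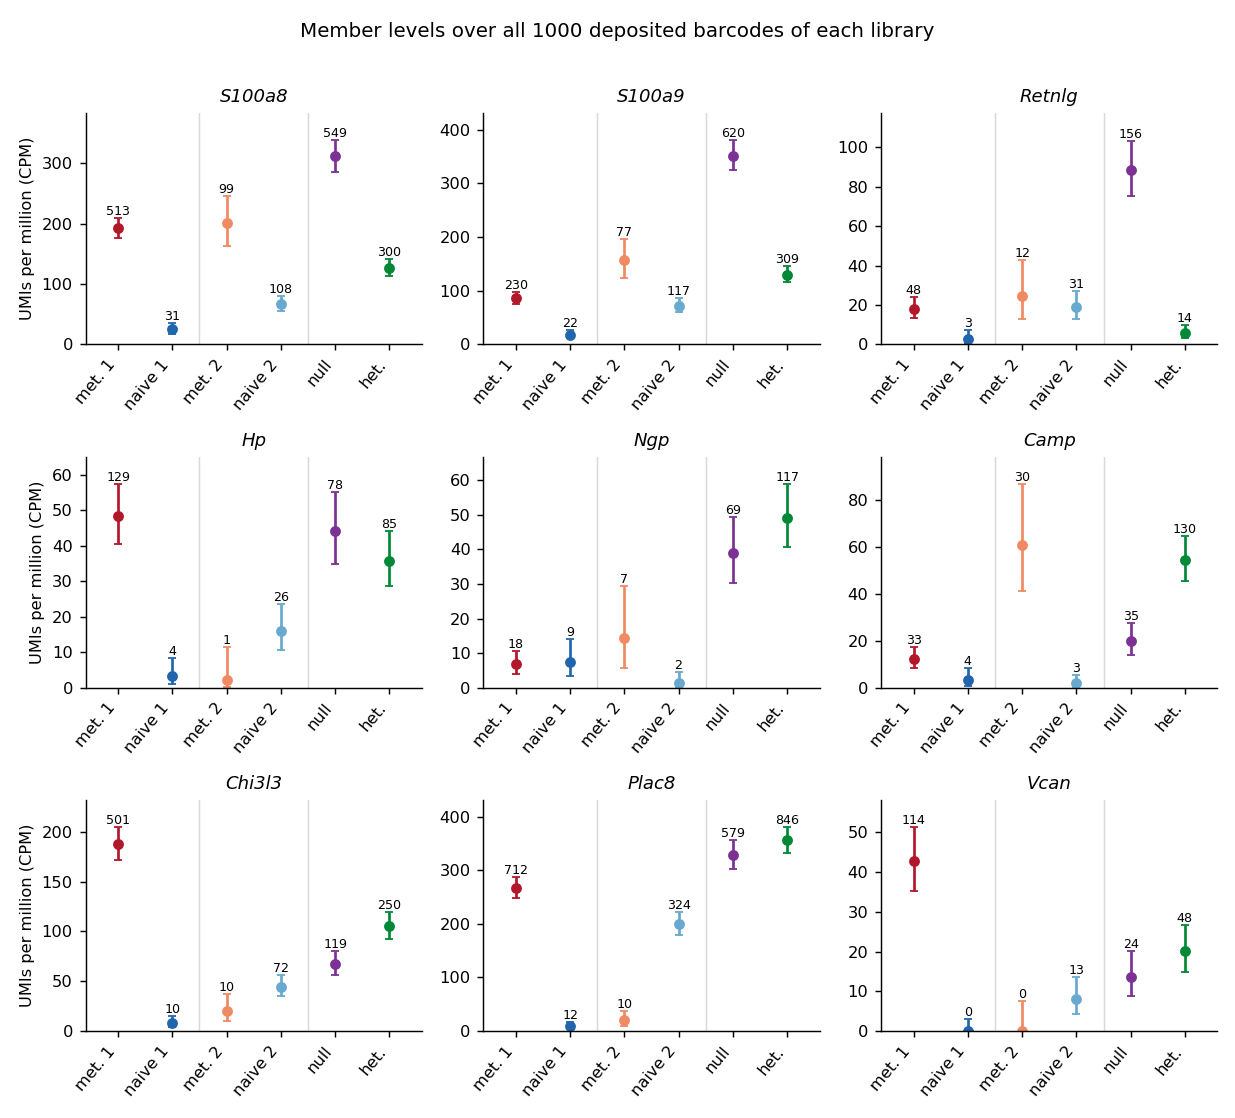
Level of each of the 9 genes (CPM, linear axis) in all 1000 deposited barcodes of each library. Numbers give UMIs and bars give exact 95% Poisson intervals. S100a8 and S100a9 were higher in both metastasis libraries than in both naive libraries, while Plac8 and Chi3l3 were as low in metastasis 2 as in naive 1 within counting error.

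Few barcodes held much of the neutrophil signal, and in the null library a single barcode held most of it. Barcodes with at least 10 UMIs of the neutrophil members numbered 10 in metastasis 1 and 0 in metastasis 2, against 0 in naive 1 and 1 in naive 2, and 3 in the null against 7 in the heterozygous library. They held 45.7% of the neutrophil-member UMIs of metastasis 1, 30.0% of naive 2, 78.0% of the null and 20.8% of the heterozygous library. Some reached 10 UMIs through Hp. By S100a8, S100a9 and Retnlg alone, 7 barcodes reached it in metastasis 1, 1 in naive 2, 1 in the null and 3 in the heterozygous library. The 2 other null barcodes held 11 and 10 UMIs of Hp with 89 and 83 of the monocyte members. The leading null barcode alone held 76.5% of that library's neutrophil-member UMIs while holding 4785 UMIs in all. It carried 439 UMIs of S100a8, 502 of S100a9, 145 of Retnlg, 48 of Ngp, 11 of Hp, 8 of Camp and 0 of the monocyte members, and these genes made up 24.1% of its transcripts. The same barcode held 31 UMIs of Stfa1, 27 of Lcn2, 12 of Stfa2 and 11 of Ifitm6, all known from neutrophils or inflammatory myeloid cells. Of the mature neutrophil receptor genes it held 6 UMIs of Il1r2, 2 of Csf3r and 0 of Cxcr2. No other barcode of the series came near it: the next had 150 neutrophil-member UMIs.

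That next barcode, in metastasis 1, held 84 UMIs of S100a8, 34 of S100a9 and 28 of Retnlg among 1946 UMIs. Another of metastasis 1, in the Ccl4-led microglia-like cluster, held 31 of S100a8, 23 of S100a9 and 11 of Retnlg with 5 of the decoy receptor gene Il1r2. The other 8 barcodes of metastasis 1 held 0 Retnlg UMIs. Among them S100a8 exceeded S100a9, with 36 against 2 UMIs in one, 27 against 0 in another and 16 against 1 in one more, and the first of these also held 8 UMIs of Hp and 8 of Vcan. In the heterozygous library the leading barcode held 38 UMIs of S100a8 and 41 of S100a9, with 23 of Camp, 12 of Ngp, 2 of Ltf and 0 of Retnlg. It had 1622 UMIs, and its mitochondrial share of 17.6% kept it out of the cells. In naive 2 the single such barcode held 37 UMIs each of S100a8 and S100a9 with 31 of Chi3l3 and 17 of Plac8, but it had 33802 UMIs, 382 of them from microglial markers, and was removed by its doublet score.

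**Figure D2:**
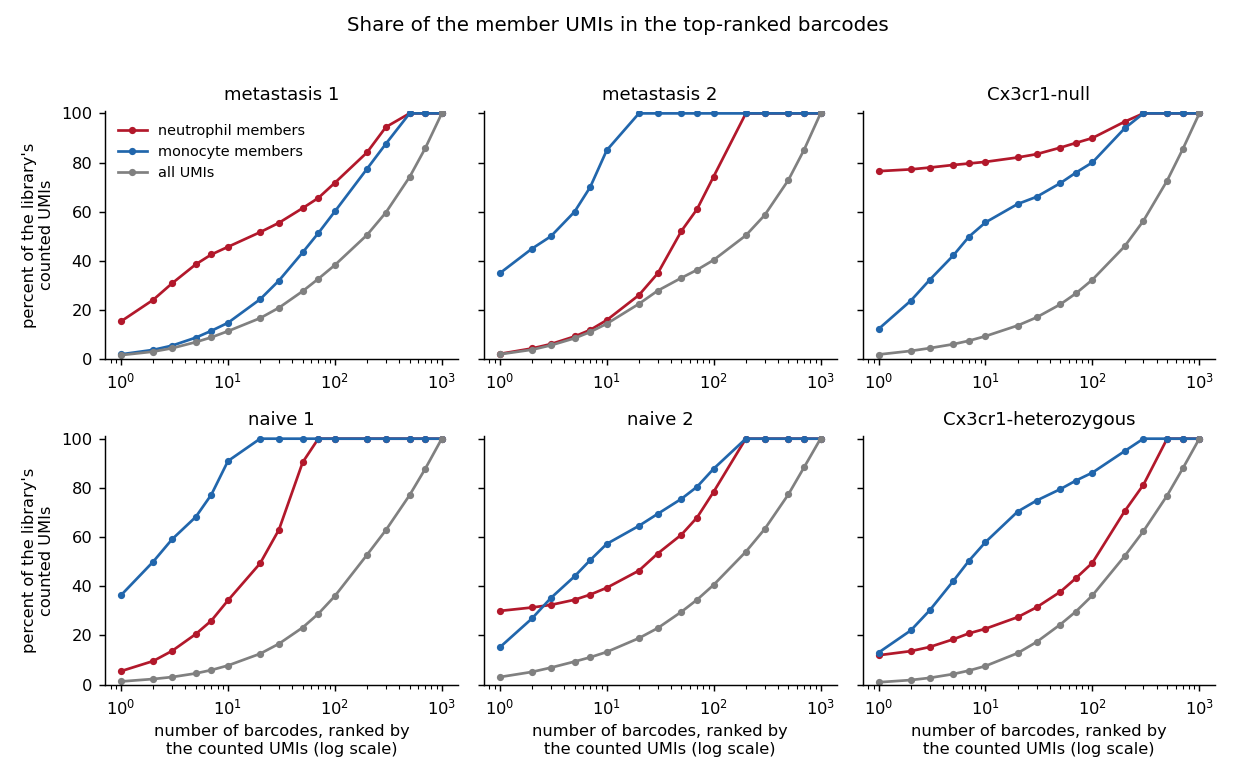
Cumulative share (%) of UMIs against barcodes ranked by that quantity, for the neutrophil members, the monocyte members and all UMIs of each library. The first barcode held 76.5% of the neutrophil-member UMIs of the null library and 11.9% of those of the heterozygous library.

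Monocyte members were held by more barcodes, at lower counts each. Barcodes with at least 10 monocyte-member UMIs numbered 27 in metastasis 1 and 0 in metastasis 2, against 0 in naive 1 and 8 in naive 2, and 10 in the null against 18 in the heterozygous library. They held 30.0% of the monocyte-member UMIs in metastasis 1, 53.3% in naive 2, 55.7% in the null and 69.0% in the heterozygous library. Only 10 barcodes reached 10 UMIs of both groups: 3 in metastasis 1, 1 in naive 2, 2 in the null and 4 in the heterozygous library. Those of the null and heterozygous libraries reached 10 neutrophil-member UMIs only with Hp counted. The heterozygous barcode richest in monocyte members held 83 UMIs of Plac8 and 65 of Chi3l3 with 1 each of S100a8 and S100a9. Another there held 103 of Plac8 with 0 of Chi3l3. In the null library a barcode held 61 UMIs of Plac8 with no other member.

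The monocyte holders carried classical monocyte genes beside macrophage and microglial markers and, but for 1 barcode, held 0 UMIs of Retnlg. In holders with fewer than 20 UMIs of S100a8, S100a9 and Retnlg, 7 classical monocyte genes summed to 4027 CPM, against 158 CPM in microglia-like cells. There 10 monocyte-derived macrophage markers summed to 5114 CPM, against 717 CPM, and 11 microglial markers to 5097 CPM, against 16699 CPM. In metastasis 1, 25 of 27 holders lay in the Spp1-led, macrophage-like cluster described below. Ccr2, the receptor that brings monocytes into tissue, was detected in 18 of 27 in metastasis 1, 6 of 8 in naive 2, 9 of 10 in the null and 7 of 18 in the heterozygous library. Ly6c2, the surface marker of classical monocytes, was detected in 15, 5, 7 and 13 of the same barcodes. Depth enters these counts, since the holders were deeper than their libraries. Median UMIs were 2351 against 1708.5 over all barcodes in metastasis 1 and 5550 against 1016 in naive 2. They were 5524 against 1266 in the null and 5020.5 against 1476.5 in the heterozygous library. The 1 holder with Retnlg was the naive 2 barcode with 33802 UMIs. Hp, placed here with the neutrophil members, followed the monocyte holders: they held 26.4% of the Hp UMIs of metastasis 1, 38.5% in naive 2, 34.6% in the null and 61.2% in the heterozygous library, beside 3.93% to 5.72% of all UMIs of these libraries. In metastasis 1, 59.5% of 79 barcodes with Hp also had Plac8, against 31.4% of all barcodes, a description that depth enters, since deeper barcodes show more of every gene.

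**Figure D3:**
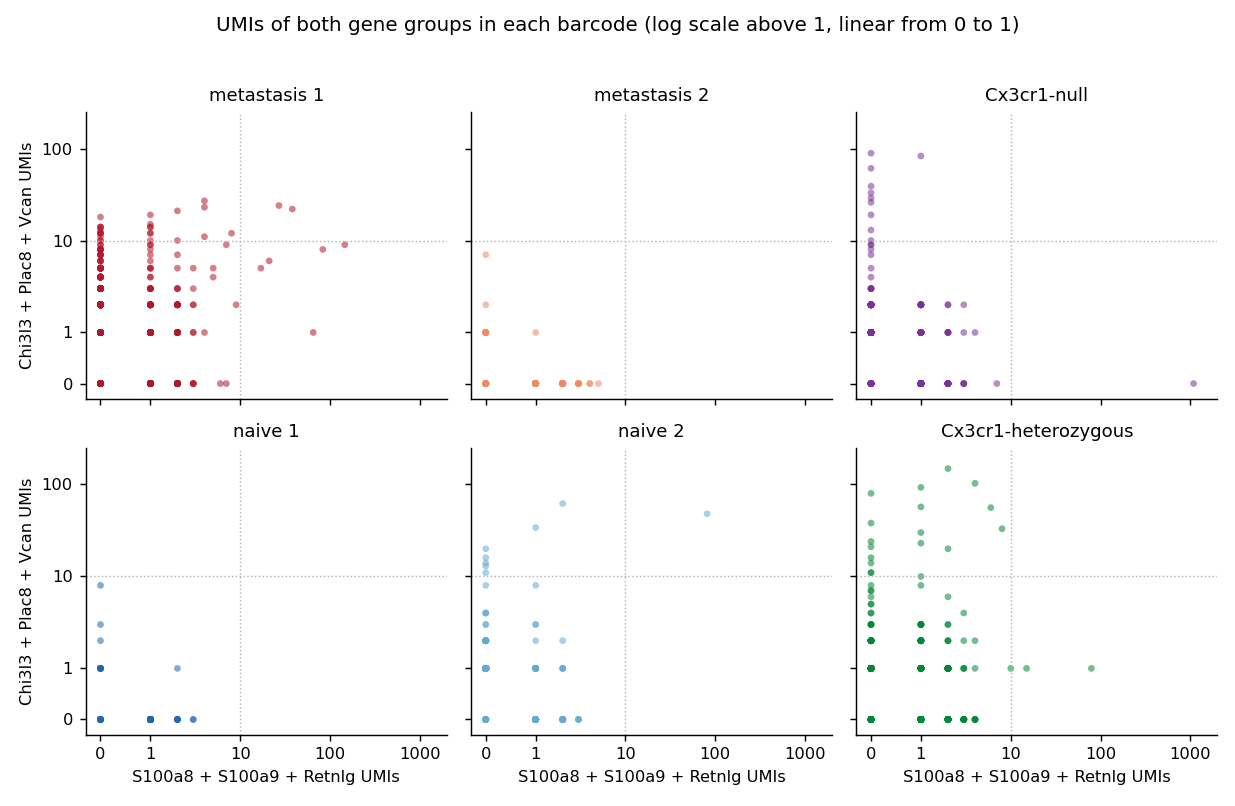
UMIs of Chi3l3, Plac8 and Vcan (y) against UMIs of S100a8, S100a9 and Retnlg (x) in each deposited barcode with a member UMI, by library. Dotted lines stand at 10 UMIs. Naive 1 and metastasis 2 held no barcode past either line, and most barcodes past a line were past one only.

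When cells were clustered without the 9 genes, no cluster could be named neutrophil-like. Of the 9 genes, 8 had their highest level in the same cluster, 254 cells led by Spp1, Saa3 and Fabp5 and named monocyte-derived macrophage-like, of which metastasis 1 gave 230 and metastasis 2 0, naive 1 gave 1 and naive 2 gave 4, and the null library gave 7 and the heterozygous library 12. It had 926 CPM of S100a8, 733 of S100a9, 214 of Retnlg, 208 of Hp, 643 of Chi3l3 and 1062 of Plac8. Camp stood at 18.5 CPM there, below the 23.5 CPM of the mt-Rnr1-led cluster. Ngp stood at 67.8 CPM, and without the leading null barcode at 8.67 CPM, below the 14.2 CPM of the Ttr-led cluster. The levels of its S100a8 rested on few cells as well: in metastasis 1 the cluster held 420.4 CPM of S100a8, and 107 CPM without its 6 barcodes of 10 or more neutrophil-member UMIs. In the null library its 7 cells, which include the leading barcode, held 95.2% of the neutrophil-member UMIs of kept cells. Among the cells led by Cd74 and other MHC class II genes (116, border-associated macrophage-like by name, with Ly6c2 also among the leading genes), Plac8 reached 686 CPM and Chi3l3 196 CPM, while S100a8 was at 23 CPM. Of its 119 Chi3l3 UMIs 1 heterozygous barcode held 65 and 1 null barcode 22, and the 25 cells of naive 1 held 0 UMIs of either gene. Without the heterozygous library the cluster held 637 CPM of Plac8 and 95.6 CPM of Chi3l3. Plac8 had 29 UMIs (420 CPM) in 31 cells led by Gzma and Nkg7 and 12 UMIs (317 CPM) in 14 dendritic cell-like cells, and without naive 2 it had 14 UMIs (237 CPM) and 2 UMIs (76.8 CPM) there. Divided further, the Spp1-led cells gave a group of 21 cells, of which 7 were null, 12 heterozygous and 2 of naive 2. Classical monocyte markers scored highest in it, with 113 UMIs of Ly6c2 and 70 of Ccr2. It is left unnamed, since its leading genes were Tppp3, Stfa1, Pglyrp1, Lcn2 and Stfa2, several known from neutrophils. It includes the leading null barcode, which held 439 of its 454 S100a8 UMIs. That barcode also held all 12 of its Stfa2 UMIs, with 31 of Stfa1 and 27 of Lcn2, so these leading genes rest in part on 1 cell.

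**Figure D4:**
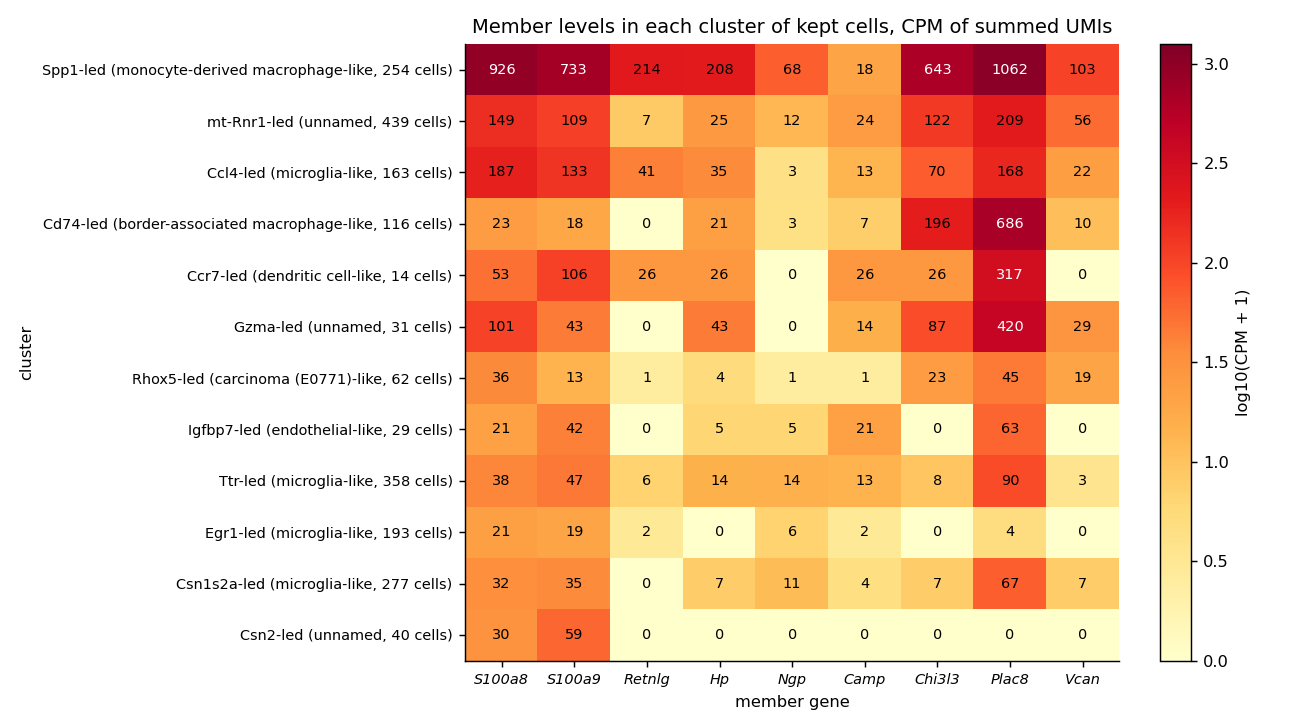
Level (CPM, printed in each field) of the 9 genes in each cluster of kept cells of all 6 libraries, with the cells clustered without these genes. All genes but Camp were highest in the Spp1-led cluster, where Ngp rested on 1 null barcode (48 of 55 UMIs), and Plac8 and Chi3l3 were also high in the Cd74-led cluster, where S100a8 was at 23 CPM.

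Outside the barcodes rich in either group, the neutrophil members lay thinly over many barcodes, most of all in metastasis 2 and the heterozygous library. With barcodes of 10 or more UMIs of either group left out, the neutrophil members summed to 190.0 CPM in metastasis 1 and 459.7 CPM in metastasis 2, against 59.7 CPM in naive 1 and 124 CPM in naive 2. They summed to 193 CPM in the null and 327 CPM in the heterozygous library, so the Cx3cr1 libraries changed places. In metastasis 2, 158 of 1000 barcodes held these 226 UMIs, and no barcode held more than 2.21% of them. In the heterozygous library 102 Ngp UMIs lay in 94 barcodes, and 104 Camp UMIs in 90. A spread in proportion to each barcode's depth would place them in 92.2 and 93.8 barcodes.

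The make-up of this thin layer differed by library. In the null library Ngp and Camp made up 16.5% of the neutrophil-member UMIs of barcodes that failed the cell filter, 9.76% of those in microglia-like cells and 4.86% of those in its leading barcode. In the heterozygous library Ngp and Camp made up 27.5% of the neutrophil-member UMIs of barcodes that failed the cell filter, 30.8% of those in microglia-like cells outside the holders, and 30.7% of those in its leading barcode (interval 22.4 to 40.0). The heterozygous share was alike in these 3 kinds of barcode, within counting error, and in the null library the leading barcode lay below the barcodes that failed the filter. In naive 2 they made up 2.9% of 172 UMIs in barcodes that failed the filter, where Retnlg made up 13.4%. Across all barcodes the Ngp and Camp share was 5.25% in metastasis 1 and 16.4% in metastasis 2, against 17.8% in naive 1 and 1.74% in naive 2, and 6.90% in the null against 25.9% in the heterozygous library. The metastasis and naive ranges overlapped.

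Microglia-like cells held member UMIs in every library. In metastasis 1 their neutrophil members summed to 408 CPM (341 to 484), within counting error of the sum over all its barcodes. In every other library that sum was lower than over all barcodes, in naive 1 within counting error. Summed S100a8 and S100a9 stood at 317 CPM in metastasis 1 and 85.6 CPM in metastasis 2, against 42.6 CPM in naive 1 and 39.9 CPM in naive 2. The null library held 67.2 CPM and the heterozygous library 113 CPM. Metastasis 2 rested on 12 UMIs and naive 2 on 15, and 1 barcode of metastasis 1 held 31 of its 59 S100a8 UMIs. Without microglia-like cells of 10 or more neutrophil-member UMIs (2 in metastasis 1 and 1 in the heterozygous library), 26 UMIs of both genes remained in metastasis 1, which is 83.4 CPM, against 98.2 CPM in the heterozygous library. Ngp and Camp together had 5 UMIs in metastasis 1 and 0 in metastasis 2, against 5 in naive 1 and 0 in naive 2, and 4 in the null against 41 in the heterozygous library (9.6 and 50.9 CPM). A count of 0 among the 72 cells of metastasis 2 allows a share of cells with a UMI of up to 4.99%.

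The monocyte members in microglia-like cells were mostly Plac8. It stood at 166 CPM in metastasis 1 and 14.3 CPM in metastasis 2, against 14.7 CPM in naive 1 and 63.8 CPM in naive 2, and at 103 CPM in the null and 102 CPM in the heterozygous library. Chi3l3 had 23 UMIs in metastasis 1 and 0 in metastasis 2, against 0 in naive 1 and 1 in naive 2, and 5 in the null against 8 in the heterozygous library. Plac8 and Chi3l3 were highest in metastasis 1 and overlapped between metastasis and naive.

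The share of microglia-like cells with a neutrophil-member UMI fell in most libraries once depth was evened out. Before that it was 23.8% in metastasis 1 and 16.7% in metastasis 2, against 7.58% in naive 1 and 12.5% in naive 2, and 24.2% in the null against 43.2% in the heterozygous library, where the median cell held 951 (metastasis 2) to 3607 (heterozygous) UMIs. With every cell thinned to 800 UMIs and 0 to 61 shallower cells per library left out, the shares were 13.4% in metastasis 1 and 16.7% in metastasis 2, against 4.83% in naive 1 and 4.46% in naive 2, and 7.83% in the null against 15.3% in the heterozygous library. Endothelial-like cells, which should lack these genes, gave a background: in the heterozygous library 8 of 12 (66.7%, median 4802 UMIs) held a neutrophil-member UMI, and 25.0% (5.49 to 57.2) after thinning. The share in heterozygous microglia-like cells was not above that level, which rests on 12 cells. In metastasis 1, 13.4% (8.602 to 19.6) of microglia-like cells held such a UMI after thinning, against 4.84% (1.01 to 13.5) of its 62 carcinoma-like cells, which unthinned stood at 33.9% with a median of 8606.5 UMIs. In naive 2 the 12 endothelial-like cells held 0 neutrophil-member UMIs.

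**Figure D5:**
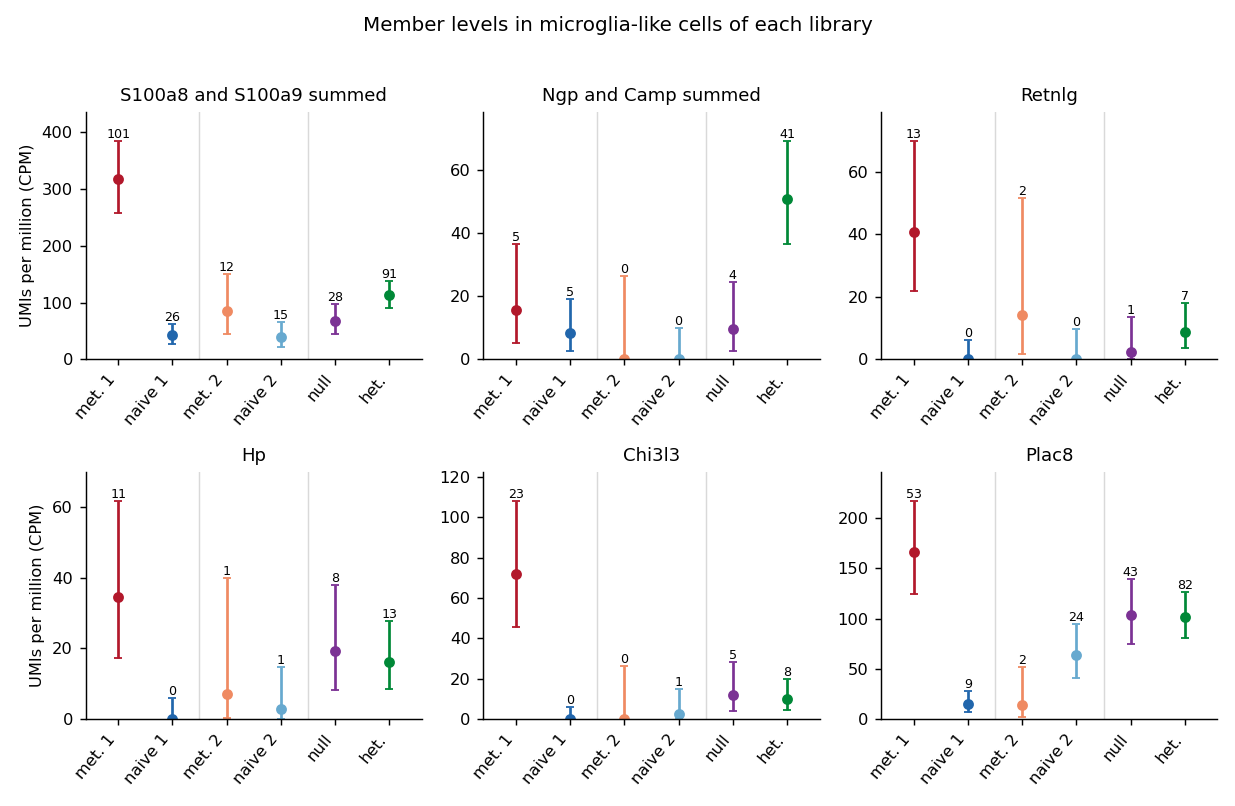
Levels (CPM) of the members in microglia-like cells of each library; numbers give UMIs and bars give exact 95% Poisson intervals. Summed S100a8 and S100a9 were highest in metastasis 1 (317 CPM, and 83.4 CPM without 2 cells) and lowest in naive 2 (39.9 CPM), and Ngp with Camp were highest in the heterozygous library (50.9 CPM).

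Between metastasis and naive, no member passed the test. UMIs were summed per library over kept cells, and the 2 metastasis libraries were compared with the 2 naive libraries by edgeR's quasi-likelihood test with Benjamini-Hochberg adjustment over 7901 genes. The test called 0% of the genes tested (0 of 7901, with 150 at an unadjusted p under 0.05, and 0 by DESeq2). Of the 9 members, 4 had enough counts to be tested and 0 were called. S100a8 stood at 198 CPM in metastasis 1 and 46.6 CPM in metastasis 2, against 20.2 CPM in naive 1 and 9.88 CPM in naive 2, a fitted log2 change of 2.97 (SE 0.84; edgeR quasi-likelihood adjusted p = 0.999, unadjusted p = 0.0117). S100a9 stood at 86.6 CPM in metastasis 1 and 46.6 CPM in metastasis 2, against 18.8 CPM in naive 1 and 18.3 CPM in naive 2, a fitted change of 1.80 (SE 0.58). For both genes the groups did not overlap. With no filter on low counts S100a8 passed (3.03, edgeR quasi-likelihood adjusted p = 0.00558), where 0.607% of 16957 genes were called. Chi3l3 had a fitted change of 1.95 (SE 1.37) and Plac8 one of 0.07 (SE 1.42), with overlapping groups. The median change of these 4 was 1.88 on the log2 scale, beside 0.04 over all genes tested, a description of members that passed the count filter. Without metastasis 1 the fitted changes of Chi3l3 and Plac8 were −6.80 and −2.83, and without naive 1 the test called 4 genes, with 0 members among them. Replicate 1 and replicate 2 were sequenced on different machines, and S100a8 was higher with metastasis on each; with the replicate as a block its change was 2.73 and that of S100a9 was 1.71. In these sums, fewer cells of a type and less RNA per cell cannot be told apart.

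In microglia-like cells no member passed either. The same test called 0% of 5531 genes (0, with 188 at an unadjusted p under 0.05, and 1 by DESeq2), and 3 members could be tested. S100a8 stood at 185 CPM in metastasis 1 and 49.96 CPM in metastasis 2, against 22.9 CPM in naive 1 and 16.0 CPM in naive 2 (log2 change 2.49, SE 0.64; edgeR quasi-likelihood adjusted p = 0.989). S100a9 had a fitted change of 1.92 (SE 0.63) and Plac8 one of 1.31 (SE 0.87). The 2 metastasis 1 cells of 10 or more neutrophil-member UMIs held all but 14 of its 59 S100a8 UMIs, and in cells with fewer than 5 member UMIs the changes were 1.13 for S100a8 and 0.69 for S100a9. Both metastasis libraries lay above both naive libraries for S100a8 and S100a9, but with possible doublets kept, when the 33802-UMI barcode of naive 2 joined the class, their changes were −0.20 and −0.73. The test called 9 genes without metastasis 1, 17 without naive 2 and 116 without metastasis 2 (1.68% of 6917 tested). Members passing without metastasis 2, with 1 metastasis library left, had fitted changes of 2.98 (S100a8), 2.40 (S100a9) and 5.58 (Chi3l3). The unaltered test did not cover Chi3l3. Nearly all of its UMIs in these cells lay in metastasis 1 (22 in the Ccl4-led cluster), so its fitted change is no measure of size. With no filter on low counts, where 0.376% of 14643 genes were called, S100a8 (2.47, edgeR quasi-likelihood adjusted p = 0.0153), Chi3l3 (4.78, adjusted p = 0.0141) and Retnlg (6.34, adjusted p = 0.0295) passed. Retnlg had 13 UMIs in metastasis 1, 11 of them in 1 barcode, and 2 in metastasis 2, against 0 in naive 1 and 0 in naive 2, so its fitted change depends on the prior count and is no measure of size. The 18 listed genes of a neutrophil marker list without members summed, over all deposited barcodes, to 478 CPM in metastasis 1 and 307 CPM in metastasis 2, against 409 CPM in naive 1 and 721 CPM in naive 2, so this list overlapped between the groups. The list is not particular to neutrophils here. It includes Lcn2, most of whose UMIs lay in naive 2 and which was also among the leading genes of the endothelial-like cluster. In microglia-like cells of all libraries the list held 783 UMIs (293 CPM), 679 of them from mature neutrophil receptor and stefin genes. In microglia-like cells, 10 monocyte-derived macrophage markers summed to 3319 CPM in metastasis 1 and 64.2 CPM in metastasis 2, against 88.4 CPM in naive 1 and 364 CPM in naive 2, and 14 classical monocyte markers to 819 and 92.8 CPM in the metastasis libraries, against 116 and 284 CPM in the naive ones. The 11 microglial markers summed to 6228 CPM in metastasis 1 and 22731 CPM in metastasis 2, against 20673 CPM in naive 1 and 16693 CPM in naive 2. The part of these lists in the members' changes, and that of the cluster named only within metastasis 1, was not tested.

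Between the Cx3cr1 genotypes the neutrophil difference in kept cells rested largely on 1 leading null cell. With 1 library in each group there is no replicate check and no test, and intervals cover counting error only. In kept cells the neutrophil members stood at 2188 CPM in the null and 219 CPM in the heterozygous library, a log2 ratio of 3.32 (3.12 to 3.52). Without the 3 cells of each library with most of these UMIs, they stood at 113 CPM in the null and 180.3 CPM in the heterozygous library, a log2 ratio of −0.67 (−1.11 to −0.26). The direction thus turned without these cells. Of those removed from the null library, the leading one held 1153 neutrophil-member UMIs, and no other kept null cell held more than 11. The monocyte members stood at 639 CPM in the null and 692 CPM in the heterozygous library, a log2 ratio of −0.11 (−0.30 to 0.07), and Plac8 at 487 CPM in the null and 495 CPM in the heterozygous library (−0.02).

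In microglia-like cells the null library was the lower one for the neutrophil members, at 98.4 CPM, against 189 CPM in the heterozygous library, a log2 ratio of −0.94 (−1.47 to −0.43). Ngp and Camp together had a log2 ratio of −2.41 (−4.35 to −0.94), and S100a8 with S100a9 one of −0.75 (−1.42 to −0.12). The monocyte members had a log2 ratio of −0.00 (−0.53 to 0.51). Endothelial-like cells of the heterozygous library held the neutrophil members at 265 CPM (16 UMIs in 12 cells), above its microglia-like cells, and the 4 such cells of the null library held 2 UMIs. How far UMIs of this kind enter the difference was not tested.

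Primary granule genes were rare. The primary (azurophil) granule genes Mpo, Elane, Prtn3, Ctsg and Ms4a3, transcribed in early neutrophil precursors, had 77 UMIs in all, and 49 of these (63.6%) lay in the heterozygous library, which held 23.4% of all UMIs. Their summed level was 3.00 CPM in metastasis 1 and 14.2 CPM in metastasis 2, against 0.82 CPM in naive 1 and 1.23 CPM in naive 2, and 5.67 CPM in the null against 20.6 CPM (15.3 to 27.3) in the heterozygous library. The heterozygous library, metastasis 2, the null library and metastasis 1 led in the same order as for Ngp and Camp together, with 10 or fewer of these UMIs in each library but the heterozygous one. None of these UMIs lay in the 9 barcodes with 20 or more UMIs of S100a8, S100a9 and Retnlg. With 60024 UMIs in all, these barcodes were too few to show genes at such low levels, so nothing is concluded from this absence. Those barcodes held 733 CPM of Lcn2, a secondary granule lipocalin, 249.9 CPM of the collagenase Mmp8, 167 CPM of the gelatinase Mmp9 and 217 CPM of Stfa2. Without the leading null barcode these levels were 308 CPM (17 of 44 UMIs), 217 CPM (12 of 15), 54.3 CPM (3 of 10) and 18.1 CPM (1 of 13). The doublet-scored barcode of naive 2 gave 33802 of the 60024 UMIs of these barcodes. In microglia-like cells Lcn2 stood at 13.5 CPM, Mmp8 at 0.75 CPM and Mmp9 at 1.12 CPM, and Stfa2 had 0 UMIs. Of the neutrophil marker list, 16 of 18 listed genes were detected in these 9 barcodes (3648 CPM summed), against 12 in the 60 monocyte holders outside these 9 (939 CPM). Of the 219 UMIs of this list in the 9 barcodes, the leading null barcode held 84 and the naive 2 barcode 59. The 11 microglial markers summed to 7830 CPM in the 9 barcodes, with 382 of 470 UMIs in the naive 2 barcode, against 5097 CPM in the monocyte holders. Of 7 classical monocyte genes, all were detected in both sets, at 2016 CPM in the 9 barcodes, against 4027 CPM in the monocyte holders. Of 825 Lcn2 UMIs in the series, 607 lay in naive 2. The 4 listed secondary granule genes had 892 UMIs in all, and the 4 of tertiary granules had 7417, of which Itgam, also expressed by microglia, gave 7006. Between metastasis and naive most of these genes were too low to test. In kept cells edgeR's quasi-likelihood test covered 0 of 6 primary, 1 of 6 secondary and 2 of 4 tertiary granule genes, 4 of 9 mature neutrophil receptors and stefins, 4 of 4 other S100 genes and 6 of 7 classical monocyte genes. In microglia-like cells it covered 0, 0, 1, 1, 2 and 3 of the same lists, and 0 of the genes tested were called in either population.

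Within metastasis 1, the library with most cells, the genes most like the summed S100a8, S100a9 and Retnlg were 1100001G20Rik (Pearson r = 0.27), Thbs1, Ifitm6, Lyz2 and Tmed5 (0.14 to 0.16) over 940 cells. Those most like Chi3l3, Plac8 and Vcan were Lyz2 (0.28), Srgn, F10, Ifitm6 and Il1b (0.26 to 0.27). These are correlations across cells of 1 library that share its depth, all of them weak, and Lyz2 (lysozyme) and Ifitm6 stood in both lists.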

How the data were processed

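For every library the authors deposited raw UMI counts of genes in 1000 barcodes; the unit was read from the values, and 0 value columns were of unknown origin. Per the submitters' processing notes STAR, Seurat and mm10 were used; for versions, settings and the choice of barcodes, the sources used here give nothing. Replicate 1 was sequenced on a HiSeq 2500 and the other libraries on a NextSeq 500, per the labels. Nothing says how brains were handled together or apart, so a p-value reflects only how these libraries spread.

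Kept barcodes had at least 400 genes, under 10% mitochondrial UMIs and a Scrublet score outside the top 5%. Cells were clustered without the 9 members in scanpy 1.11.5 (2000 variable genes, 30 components, 15 neighbours, Leiden resolution 1, igraph 0.11.9). A cluster was named, with "-like", when at least 3 markers reached 50 CPM in 5% of its cells, its marker score reached 0.3 of the highest cluster's and a marker stood among its 50 leading genes (ranked with 20 CPM added). Where 1 library gave 90% of a cluster, it could be named against that library. CPM are UMIs per 1000000 UMIs of the stated barcodes. UMI counts were summed per library and tested with edgeR 4.0.16 (quasi-likelihood, TMM, filterByExpr, Benjamini-Hochberg, adjusted p under 0.05) in R 4.3.3, with DESeq2 1.42.0 as an alternative; the procedure was tested on simulated data. Intervals are 95% exact Poisson (levels), Clopper-Pearson (shares) or binomial (ratios) and measure counting error alone. The floor for 0 counts is 3 counts. A barcode with at least 10 UMIs of a member group was called a holder. The members, their division and all lists, including the cell type markers and the other granule and monocyte genes, were chosen with earlier results of these data known. Genes that are no members come from those lists, are leading genes of a cluster or of its subdivision, or are the 5 most correlated with each summed group. These correlations were taken in metastasis 1, among genes with at least 50 UMIs there. Stfa1 is in none of the lists and was named as a leading gene of a subdivision. Alternatives were another block, filter, tool, cell filter, doublet rule and clustering, and leaving out each library. Levels of a cluster or cell class without single barcodes or a library were added after seeing the data.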

Additional observations from a re-analysis of the deposited data

How the results depend on the processing

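Of 74 changes recomputed under another setting for the members that the unaltered test covered (4 in kept cells, 3 in microglia-like cells), 64 kept their direction and side of the threshold, 4 came to pass it and 6 turned. Of members it did not cover, Chi3l3 passed in microglia-like cells with no filter and without metastasis 2, and Retnlg with no filter. In kept cells the test between metastasis and naive called 103 genes with no filter on low counts, 6 with a crossed replicate block and 0 to 4 with a library left out (4 without naive 1). In microglia-like cells it called 55 with no filter, 1 by DESeq2 and 0 to 116 with a library left out (9 without metastasis 1, 17 without naive 2, 116 without metastasis 2). With 1 library left in a group, that library is assumed to vary like the others. The replicate block called 0 genes in both, and its numbers share only the sequencing machine: same-numbered libraries deviated with correlations of −0.403 in kept cells and −0.156 in microglia-like cells, for which the crossed pairing was added after seeing the data. Leaving out libraries in turn gave log2 changes of 1.53 to 3.67 for S100a8, 1.25 to 2.07 for S100a9, −6.80 to 3.07 for Chi3l3 and −2.83 to 3.44 for Plac8 in kept cells, and 1.22 to 2.98, 0.64 to 2.40 and −1.40 to 2.43 for S100a8, S100a9 and Plac8 in microglia-like cells. Plac8 turned to −0.88 without naive 1 and −2.83 without metastasis 1 in kept cells and to −1.40 without metastasis 1 in microglia-like cells, and Chi3l3 to −6.80 without metastasis 1. With doublets kept, S100a8 and S100a9 turned to −0.20 and −0.73 in microglia-like cells, where naive 2 then held 234 CPM of the neutrophil members through 1 barcode. In microglia-like cells with fewer than 5 member UMIs they were 1.13 and 0.69. The neutrophil log2 ratio of null over heterozygous turned to −0.67 without the 3 leading cells and −0.84 over all barcodes without them (added after seeing the data), and was 1.09 over all barcodes, 1.18 under a relaxed cell filter and 3.11 with doublets kept; the monocyte ratio was −0.30 without the 3 leading cells. With the members kept in the clustering, or at resolution 0.5 or under the relaxed filter, metastasis 1 had only 2 microglia-like cells, with 0 neutrophil-member UMIs in each case. The microglia test could not be fitted under any of these settings. With members in the clustering, the heterozygous monocyte members in microglia-like cells stood at 75.0 CPM. Thinning brought the neutrophil share of microglia-like cells to 13.4% in metastasis 1, 4.83% in naive 1, 4.46% in naive 2, 7.83% in the null and 15.3% in the heterozygous library, and the monocyte share to 18.9% in metastasis 1, 0% in metastasis 2, 5.36% in naive 2, 2.61% in the null and 8.47% in the heterozygous library. Barcodes with fewer than 10 UMIs of either group (added after seeing the data) held 190.0 CPM of neutrophil members in metastasis 1, 124 CPM in naive 2, 193 CPM in the null and 327 CPM in the heterozygous library, and 353 CPM, 123 CPM, 189 CPM and 158 CPM of monocyte members in the same libraries. The causes were not tested, beyond what each setting itself removes. Ngp and Camp had 0 UMIs in microglia-like cells of metastasis 2 and naive 2, where 3 UMIs would be 21.4 and 7.98 CPM.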
